A study of Mus musculus with 17 samples.

Results

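Small nucleolar RNAs (snoRNAs) and small Cajal body RNAs (scaRNAs) were described in RNA sequencing of single whole mouse embryos. A row of the deposited table belonged to the group when its symbol began with Snora, Snord or Scarna followed by a digit and its TPM was at least 1 in at least 4 of the 17 libraries. TPM is a length-scaled abundance that sums to 1000000 in every library. The rule took 39 of the 152 rows with such symbols, and the table held 41709 symbols in all. The members were 15 of 38 Snora rows, 18 of 106 Snord rows and 6 of 8 Scarna rows. The members were thus selected on their measured TPM, so how high they stood is a description of what was chosen.

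The study set 4 wild-type embryos (Disp1_WT) beside 4 Disp1 CS/INDEL embryos (Disp1_CS_INDEL) at E9.5, from crosses of Disp1 CS/+ females with Disp1 INDEL/+ males. It set 4 Myo10 +/+ embryos (Myo10_WT) beside 5 Myo10 m1J/m1J embryos (Myo10_m1J) at E8.5, from crosses of Myo10 m1J/+ parents. All embryos were labelled as C57BL/6J, inherited their alleles from the parents, and were purified and prepared with the same kits per the labels' protocols. Each library came from 1 embryo, litter mates are not marked in the labels, and no group links the ages, so age and experiment cannot be told apart.

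SnoRNAs are guides that base-pair with ribosomal RNA in the nucleolus. H/ACA box RNAs (Snora) direct the conversion of uridine to pseudouridine, and C/D box RNAs (Snord) direct methylation of the ribose. ScaRNAs carry the same boxes but work in Cajal bodies on spliceosomal small nuclear RNAs. Most are cut out of introns of host genes and have no poly(A) tail, and a few, such as U3 and the U17 type encoded by Snora73a and Snora73b, serve cleavage of the ribosomal RNA precursor rather than its modification.

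The sequences of 9 members that carried most of the summed level or led the tests show the 3 architectures. They are from GENCODE M21 (GRCm38), written 5′ to 3′ as DNA. In the H/ACA members capitals mark the ACA box within the last 9 bases.
Snora73a: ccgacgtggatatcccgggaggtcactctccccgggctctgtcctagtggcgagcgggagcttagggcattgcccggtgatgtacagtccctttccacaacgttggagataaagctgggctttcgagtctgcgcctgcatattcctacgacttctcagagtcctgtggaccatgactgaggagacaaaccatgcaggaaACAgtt
Snora73b: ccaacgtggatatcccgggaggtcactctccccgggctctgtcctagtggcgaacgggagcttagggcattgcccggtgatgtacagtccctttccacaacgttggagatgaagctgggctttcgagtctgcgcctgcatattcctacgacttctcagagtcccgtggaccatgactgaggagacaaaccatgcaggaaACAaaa
Snora78: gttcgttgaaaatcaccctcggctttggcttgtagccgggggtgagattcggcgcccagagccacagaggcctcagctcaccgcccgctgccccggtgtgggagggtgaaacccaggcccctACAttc
Snora57: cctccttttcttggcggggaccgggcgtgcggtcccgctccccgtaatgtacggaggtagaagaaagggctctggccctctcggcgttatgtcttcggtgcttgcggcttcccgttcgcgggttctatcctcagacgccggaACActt

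In the C/D members capitals mark the letters TGATGA of the C box within the first 30 bases and the last CTGA of the D box within the last 30.
Snord17: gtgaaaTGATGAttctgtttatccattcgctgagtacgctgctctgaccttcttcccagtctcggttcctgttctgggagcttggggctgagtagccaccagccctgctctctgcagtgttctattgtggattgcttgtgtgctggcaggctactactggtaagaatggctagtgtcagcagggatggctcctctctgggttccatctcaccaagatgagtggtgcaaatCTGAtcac
Snord15a: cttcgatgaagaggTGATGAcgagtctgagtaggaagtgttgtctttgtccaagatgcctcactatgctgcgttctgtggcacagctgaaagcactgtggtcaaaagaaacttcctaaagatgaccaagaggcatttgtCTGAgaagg
Snord15b: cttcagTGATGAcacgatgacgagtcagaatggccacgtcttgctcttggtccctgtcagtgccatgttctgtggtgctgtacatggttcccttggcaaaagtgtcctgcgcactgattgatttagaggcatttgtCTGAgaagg

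The leading Cajal body members are longer. Scarna10, known as a scaRNA with both kinds of box, has 325 bases, of which the last 300 are shown, and no ACA within its last 9. Scarna13 has 275 bases and an ACA there, in capitals.
Scarna10, positions 26 to 325: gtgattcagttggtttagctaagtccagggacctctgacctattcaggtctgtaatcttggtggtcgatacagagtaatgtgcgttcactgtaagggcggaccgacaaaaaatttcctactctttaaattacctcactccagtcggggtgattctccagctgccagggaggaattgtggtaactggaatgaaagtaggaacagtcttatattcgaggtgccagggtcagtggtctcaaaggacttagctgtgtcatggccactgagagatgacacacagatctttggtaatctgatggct
Scarna13: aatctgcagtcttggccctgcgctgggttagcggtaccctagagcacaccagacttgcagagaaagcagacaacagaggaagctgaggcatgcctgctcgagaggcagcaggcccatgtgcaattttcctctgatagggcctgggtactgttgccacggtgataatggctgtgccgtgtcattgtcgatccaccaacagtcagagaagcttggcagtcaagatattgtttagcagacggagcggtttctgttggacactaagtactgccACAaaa

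GENCODE M21 held 1 gene for 35 of the 39 symbols, and Snora43_1, Snord94, Snord3a and Snord3b4_2 were not matched. ACA stood within the last 9 bases in 13 of 14 Snora members and in 95.2% of 42 annotated Snora sequences (11.9% on the reverse strand). TGATGA stood within the first 30 bases in 12 of 15 Snord members and in 73.5% of 98 annotated Snord sequences, and on the reverse strand in 0% of them. CTGA stood within the last 30 bases in 15 of 15 Snord members and in 99.0% of those 98 sequences (8.16% on the reverse strand). In the same windows, TGATGA was present in 4 of 6 Scarna members and 44.4% of 9 annotated Scarna sequences, CTGA in 5 of 6 and 66.7%, and ACA in 1 of 6 and 44.4%. The Scarna members thus held ACA at a lower share, and TGATGA and CTGA at a higher one, than the 9 annotated sequences that include them. The windows searched for TGATGA and CTGA did not overlap, since the shortest Snord row with a length had 64 bases.

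Snord and Scarna members were longer at the median than the other rows of their classes. Snord members were 70 to 238 bases long with a median of 104, beside a median of 81 for the 79 other Snord rows with a length. Snora members had a median of 135 bases, beside 131 for the 21 others. The 6 Scarna members spanned 70 to 414 bases with a median of 270, beside 131 and 139 bases for the 2 others. Among the 35 members with a length, longer RNAs stood higher at E8.5 (Spearman rho 0.69 across genes, which share libraries and are not replicates). The 9 of them at a mean of 100 TPM or more were 128 to 414 bases long, and the 16 under 10 TPM were 70 to 149 bases long. TPM divides by length, and how reads from RNAs shorter than a library fragment were counted is not given in the sources used here.

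The embryos at E8.5 and E9.5 differed in these RNAs by far more than embryos of 1 age did. Summed over the 39 members, the level was 14.0 to 32.1 TPM in the 8 E9.5 libraries and 5159 to 8200 TPM in the 9 E8.5 libraries. This was 0.0014 to 0.0032% of all TPM at E9.5 and 0.516 to 0.820% at E8.5. Between 3 and 7 members reached 1 TPM in an E9.5 library, and 32 to 37 did so in an E8.5 library. The rule was met through the E8.5 libraries for most members: 38 would pass on those 9 alone, and 4 (Snora43_1, Snord17, Snora73b and Snora73a) on the 8 E9.5 libraries alone.

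Each class showed this difference. The Snora members summed to 16.7 ± 7.22 TPM in Disp1_WT (SD, n = 4), 17.4 ± 4.98 TPM in Disp1_CS_INDEL (n = 4), 2885 ± 433 TPM in the Myo10_WT group (n = 4) and 3786 ± 634 TPM in the Myo10_m1J group (n = 5). The Snord members summed to 3.35 ± 1.60, 2.57 ± 1.39, 994 ± 200 and 1348 ± 168 TPM in the same order. The Scarna members summed to 1.60 ± 0.58, 1.20 ± 0.88, 2029 ± 113 and 2249 ± 158 TPM. No E9.5 library reached any E8.5 library in any class, and at E9.5 the genotypes overlapped in all 3. In whole embryos, fewer cells of a type and less RNA per cell cannot be told apart. At E8.5 the Snora RNAs held 45.3 to 55.2% of the members' sum, the Scarna RNAs 27.4 to 38.1% and the Snord RNAs 14.3 to 21.1%.

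**Figure D1:**
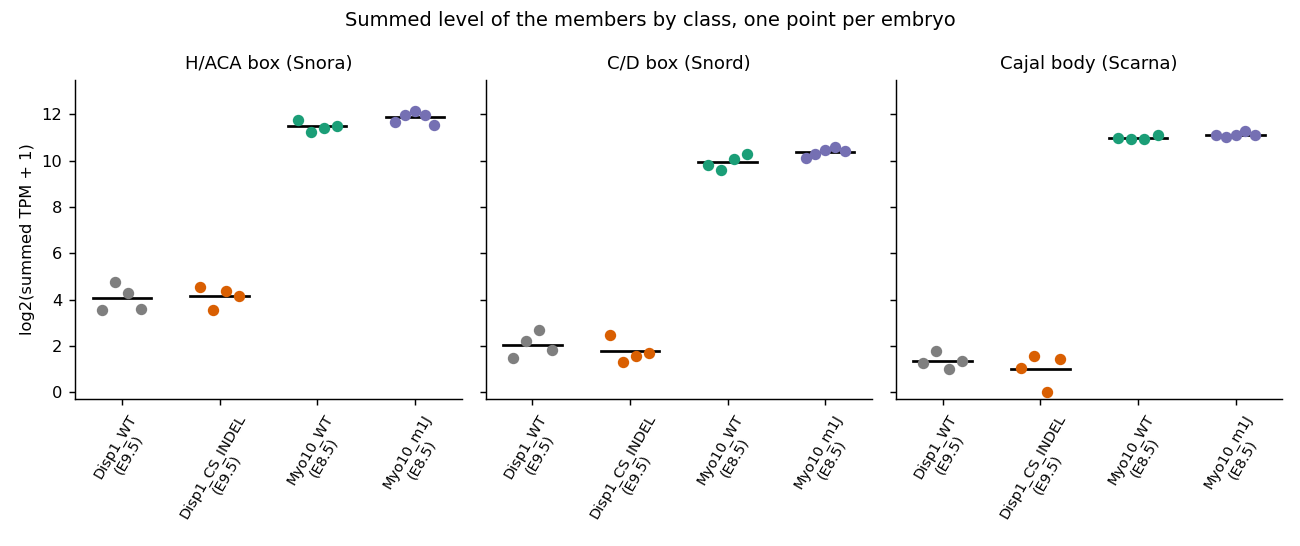
Summed level of the members of each class on a log2(TPM + 1) axis, 1 point per embryo in 4 groups, with the group mean of the log2 values as a line. The 8 E9.5 embryos lie far below the 9 E8.5 embryos in each class, and the genotypes of 1 age lie close together.

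The largest differences between Myo10_WT at E8.5 and Disp1_WT at E9.5 on the log2(TPM + 1) scale were those of Scarna13, Scarna2, Snord3b4_2, Scarna10 and Snora74a. This contrast is what the rule reads, so the counts are given as a description: 28 members passed the filter on its 8 libraries and all 28 were called lower at E9.5, where 10.2% of the 13397 genes tested were called lower by limma. Of those 28, 27 had groups that did not overlap, against 7.96% of all genes. Over all 17 libraries, 28 of the 39 members had their lowest E8.5 value above their highest E9.5 value, 30 were above 0 in every E8.5 library and 16 were listed at 0 in every E9.5 library. No fold is given against a group listed at 0, since an exact 0 can be a failed estimate.

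Among the H/ACA members, Snora73a and Snora73b, the U17 type, led at both ages. Snora73a had 4.85, 11.2, 5.60 and 7.40 TPM in the 4 Disp1_WT embryos and 8.64, 5.16, 4.58 and 7.16 TPM in the 4 Disp1_CS_INDEL embryos. At E8.5 it had 1868, 1282, 1432 and 1511 TPM in Myo10_WT and 1802, 2054, 2453, 2136 and 1555 TPM in Myo10_m1J. It was the highest member in every E8.5 library and took 23.7 to 29.9% of the members' sum there. Snora73b ranged from 1.56 to 10.3 TPM at E9.5 and from 688 to 1280 TPM at E8.5.

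Snora73a and Snora73b match at 198 of 205 aligned positions (96.6%), so how reads were split between them is uncertain. Their ratio was nevertheless alike in the E8.5 embryos, from 1.60 to 1.98, with a mean of 1.83 ± 0.034 in Myo10_WT (SD, n = 4) and 1.84 ± 0.15 in Myo10_m1J (n = 5). Snora74a, an H/ACA RNA of the U19 type, was listed at 0 in all 8 E9.5 embryos and had 176 to 376 TPM at E8.5. Snora78 was above 0 in 1 E9.5 embryo, at 2.11 TPM in Disp1_WT replicate 2, and had 140 to 239 TPM at E8.5. The other Snora members had E8.5 means of 0.66 to 66.5 TPM, from Snora30 to Snora57.

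The C/D class was led by Snord3b4_2, a copy of the U3 RNA that works in early cleavage of the ribosomal RNA precursor. It was listed at 0 in 7 of 8 E9.5 embryos, with 0.30 TPM in the other, and had 338 to 709 TPM at E8.5. Some other copies of this RNA were above 0 at E9.5 only, and none of them exceeded 1.11 TPM. Snord3b1 was above 0 in 6 E9.5 embryos, Snord3b4_1 in 5, Snord3b2 in 3 and Snord3b3 in 2. Each was listed at 0 in all 9 E8.5 embryos. The split among these copies is therefore uncertain, but their sum is not affected by it. All 8 Snord3a and Snord3b rows together gave 0.55 to 3.72 TPM at E9.5 and 350 to 789 TPM at E8.5.

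Snord17 was above 0 in all 8 E9.5 embryos. It had 0.56, 1.70, 2.15 and 0.67 TPM in Disp1_WT and 0.86, 0.83, 1.97 and 1.07 TPM in Disp1_CS_INDEL, beside 135 to 326 TPM at E8.5. Snord15b was listed at 0 in all E9.5 embryos and had 120 to 174 TPM at E8.5. Snord15a, which lies in the same host gene, was above 0 in 2 E9.5 embryos and had 66.3 to 110 TPM at E8.5. The pair match at 107 of 162 aligned positions (66.0%), and Snord15b was 1.52 to 2.23 times Snord15a in each E8.5 embryo.

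The Cajal body class was dominated by 3 RNAs of similar level. At E8.5, Scarna10 had 604 to 985 TPM, Scarna13 628 to 810 TPM and Scarna2 505 to 673 TPM. Scarna6 followed with 62.9 to 110 TPM, whereas Scarna17 and Scarna9 had E8.5 means of 2.76 and 1.32 TPM. At E9.5, Scarna10 was above 0 in 7 of 8 embryos and reached 1.83 TPM, and no other Scarna member reached 1 TPM. The class thus had 3 members at 505 TPM or more in every E8.5 embryo and 2 with a mean under 10 TPM.

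**Figure D2:**
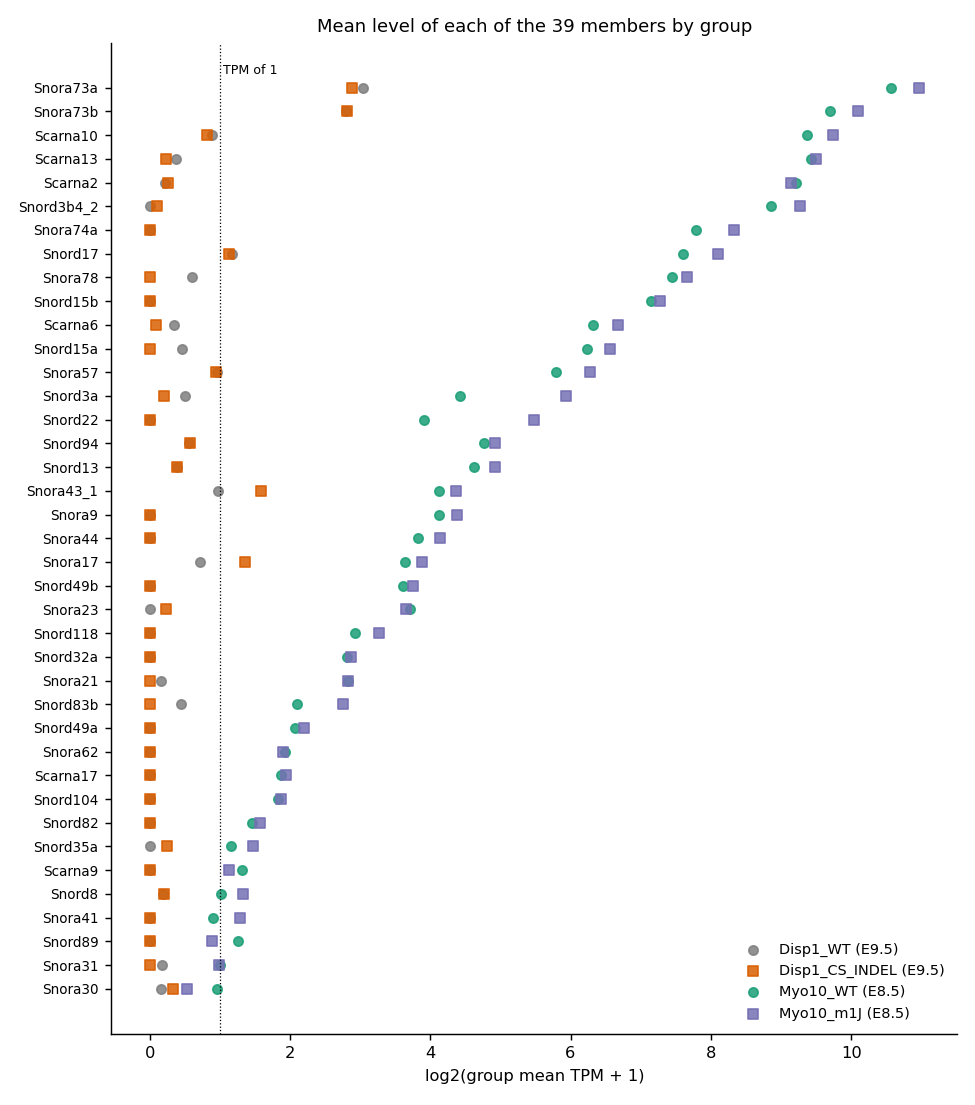
Group mean of each member on a log2(TPM + 1) axis, ordered by its E8.5 mean, with circles for wild-type and squares for mutant embryos and a dotted line at 1 TPM. The E9.5 groups lie near 0 for nearly all members, while the E8.5 groups run from under 1 TPM for Snora30 to 1523 and 2000 TPM for Snora73a.

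A few members held nearly all of the level. The 6 highest members took 78.3 to 81.6% of the sum in each E8.5 library and the 10 highest 90.2 to 93.6%. By E8.5 mean, 10 members had 100 TPM or more, 13 had 10 to under 100 TPM and 16 had under 10 TPM. The spread between embryos grew as levels fell: in Myo10_WT the median coefficient of variation was 15.0%, 25.1% and 64.8% in these 3 bands. Just inside the rule stood Snora30, Snora31 and Snord89, whose fourth-highest values were 1.03, 1.08 and 1.18 TPM. Just outside stood Snord110, Snord65 and Snord34, at 0.97, 0.93 and 0.93 TPM. Of the 113 rows outside, 84 were listed at 0 in every library.

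The host genes were present at both ages, unlike most of the RNAs they contain. GENCODE M21 gave 28 of the 35 matched members a host gene on the same strand: 21 lay in introns only and 7 overlapped an annotated exon, so those 7 share sequence with their host. The 7 were Scarna10, Snora9, Snora44, Snora73a, Snora74a, Snord15b and Snord22. As no strand setting is given in the sources used here, reads of a member cannot be told apart from reads of an overlapping or antisense transcript. No host held 3 members. Snora73a and Snora73b shared Snhg3 and Rcc1, Snord15a and Snord15b shared Rps3, Snord32a and Snord35a shared Rpl13a, and Snord49a and Snord49b shared 2410006H16Rik. Of 23 named hosts in the table, all 23 were at 1 TPM or more in all 17 libraries, and the ratio of their Disp1_WT to Myo10_WT means ran from 0.27 to 2.70 with a median of 1.16. As deposited, limma called 11 of the 23 higher and 7 lower in Disp1_WT, beside 69.4% of all 13397 genes called higher and 10.2% lower. After median-of-ratios scaling, which centres the median gene, it called 7 of the 23 higher and 12 lower, beside 4958 genes higher and 4736 lower.

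Rps3, a ribosomal protein gene, had 1101 ± 54.1 TPM in Disp1_WT and 559 ± 35.2 TPM in Myo10_WT (SD, n = 4 each), where Snord15b was listed at 0 and had 141 TPM. Snhg3 had 34.8 ± 3.97 and 33.1 ± 5.85 TPM, and its guest Snora73a had 7.26 and 1523 TPM. Ncapd2, a condensin subunit, had 215 ± 33.8 and 138 ± 13.0 TPM, and its guest Scarna10 had 0.86 and 662 TPM. Snhg10 had 5.52 ± 1.91 and 6.05 ± 1.16 TPM, and its guest Scarna13 had 0.30 and 690 TPM. In Disp1_WT no member stood above its host, and in Myo10_WT 6 of 26 did: Scarna10, Scarna13, Scarna6, Snora73a, Snora73b and Snora78. Of the RNAs in this paragraph, Snord15b, Snora73a and Scarna10 overlap an annotated exon of Rps3, Snhg3 and Ncapd2 in turn. How reads were split between those guests and hosts is uncertain. Scarna13, Scarna6, Snora73b and Snora78 lie in introns only.

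**Figure D3:**
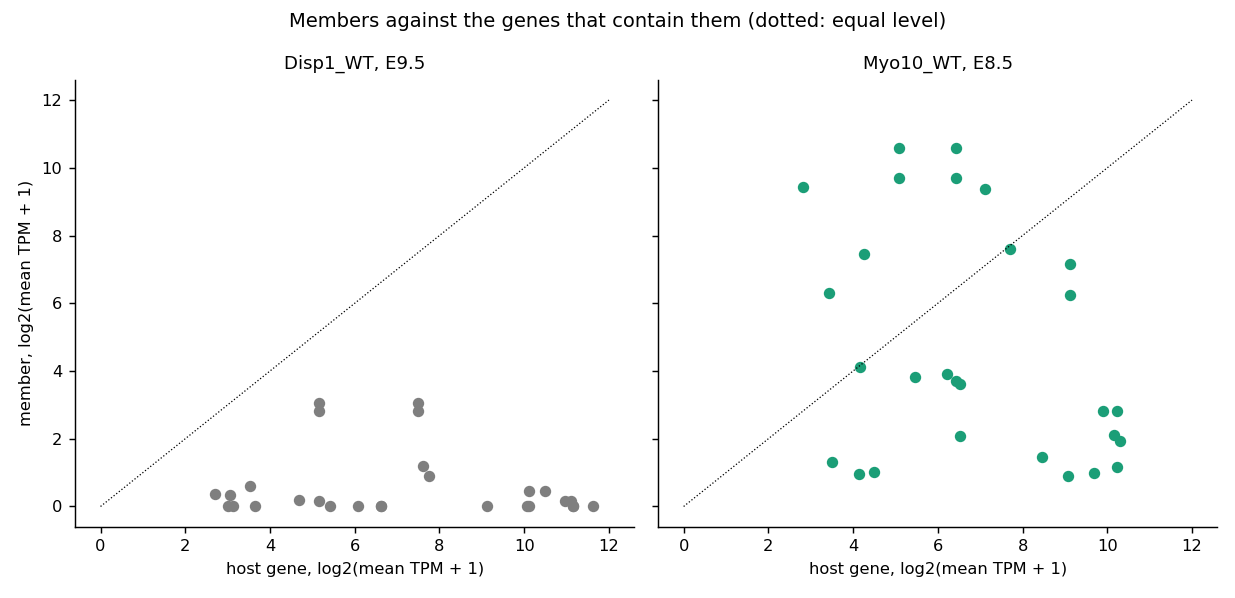
Mean level of 26 members against the mean level of the named host genes that contain them, in Disp1_WT at E9.5 and Myo10_WT at E8.5, both on log2(TPM + 1) axes. Members with a pair of hosts appear once per host, and the hosts cover a similar range at both ages while the members lie below the dotted line of equal level at E9.5.

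Other RNAs known to lack a long poly(A) tail differed in the same direction. Abundant structural RNAs (7SL, 7SK, Rmrp and Rpph1 rows) took 0.0052 to 0.0132% of TPM at E9.5 and 29.7 to 44.5% at E8.5. The 58 core histone rows, whose transcripts end in a stem-loop, summed to 176 to 229 TPM and 62974 to 80778 TPM. Other short noncoding RNAs such as Rny1 and Rny3, the Y RNAs, summed to 0.72 to 5.43 TPM and 1615 to 2852 TPM. By limma 12 of 12 tested were called lower at E9.5, beside 10.2% of all genes. These short RNAs were near 0 in Disp1_WT and passed the filter through their Myo10_WT values. The filter thus favoured this direction, and the count is given as a description. Ribosomal protein genes, whose transcripts are polyadenylated, differed the other way and summed to 158921 to 171560 TPM and 74439 to 91536 TPM. TPM has a fixed sum, so the share of the structural RNAs at E8.5 is taken from all other rows. By limma 69.4% of all genes were called higher in Disp1_WT than in Myo10_WT, and the median gene differed by 0.62 on the log2 scale. How much of the ribosomal protein difference this makes up was not tested. The labels name the same library kit for all samples, and the part of library content in the members' levels was not tested.

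Genes of the snoRNA pathway were read from lists. As deposited, limma called 6 of 6 H/ACA particle genes, 11 of 12 C/D particle genes and 16 of 18 Cajal body genes higher in Disp1_WT than in Myo10_WT, but 69.4% of all genes were called higher and the median gene differed by 0.62 on the log2 scale. The directions depended on the scale. With median-of-ratios scaling, which brings the median gene to 0.02, 4958 of the 13397 genes tested were called higher and 4736 lower. On that scale 1 H/ACA gene was higher and 4 lower, 5 C/D genes were higher and 4 lower, and 7 Cajal body genes were higher and 3 lower. Gar1, an H/ACA core protein, had 164 ± 6.12 TPM in Disp1_WT and 37.8 ± 4.66 TPM in Myo10_WT, and Fbl, the methyltransferase of the C/D particle, had 284 ± 14.3 and 98.8 ± 5.29 TPM (SD, n = 4 each). Of 23 genes of snoRNA release and end processing, 18 were called higher and 1 lower as deposited, and 5 and 8 after median-of-ratios scaling. Of 30 genes of RNA polymerase I and ribosomal RNA processing, 20 were called higher and 3 lower as deposited, and 3 and 18 after that scaling. Taf1d, a subunit of the RNA polymerase I factor SL1, was the lowest of these, at 13.1 ± 3.75 TPM in Disp1_WT and 178 ± 10.3 TPM in Myo10_WT. The other genes called lower as deposited, named here after their values were seen, were Utp20 (-0.72 on the log2 scale), Wdr43 (-0.19) and, in the release list, Dis3 (-0.21). The noncoding host transcripts were mostly lower at E9.5: as deposited 12 of 15 had a negative log2 fold change, with a median of -0.49. Of the 15, 7 were called lower and 2 higher, beside 10.2% of all genes lower and 69.4% higher. After median-of-ratios scaling 14 were called lower and 1 higher. The 2 called higher as deposited were Snhg18, at 16.5 ± 1.48 and 7.16 ± 1.12 TPM, and Epb41l4aos, at 74.7 ± 5.30 and 57.0 ± 7.94 TPM. Snhg12, host of Snora44, had 11.5 ± 6.30 and 42.9 ± 8.29 TPM.

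The genotypes were compared within each age, where the rule does not fix the answer. Myo10 itself averaged 25.8 ± 6.02 TPM (SD) in the 4 wild-type and 3.61 ± 0.89 TPM in the 5 m1J embryos (exact two-sided permutation p = 0.0159, the smallest that 4 against 5 allows). Disp1 averaged 17.5 ± 1.74 TPM (SD) in wild-type and 14.3 ± 1.98 TPM in CS/INDEL embryos (exact two-sided permutation p = 0.0571), a check that does not pass the threshold at the RNA level. Markers of neural tissue, paraxial mesoderm, heart, endoderm and primitive erythroid cells were present at both ages, the erythroid ones at 12568 to 26553 TPM at E9.5 and 67.2 to 4215 TPM at E8.5. Yolk sac markers summed to 29.4 to 692 TPM at E9.5 and 488 to 1777 TPM at E8.5, and the part of this tissue in the difference between the ages was not tested. Within an age, yolk sac and decidua markers stood apart in Disp1_WT replicate 3 (692 and 668 TPM, against at most 59.2 and 28.3 TPM in other E9.5 embryos), and decidua markers in Myo10_m1J replicate 2 (192 TPM, against at most 19.8 TPM in other E8.5 embryos). Leaving out either library gave no call of a member within its age.

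No member passed the test in the Myo10 comparison, although most had higher means in the mutant. limma with Benjamini-Hochberg adjustment over 12560 genes called 0 of 38 members tested (smallest adjusted p = 0.473) and 0.00796% of all genes. The log2 fold change was positive for 31 of 38 members with a median of 0.28, while 6.0% of all genes had a positive value and the median gene stood at -0.16. At an unadjusted p under 0.05 there were 10 members, all higher, against 0.342% of all genes higher. A member could pass the filter through the 5 m1J embryos alone, so these counts are a description. The members summed to 5909 ± 579 TPM (SD) in wild-type and 7383 ± 797 TPM in m1J embryos, which is 125% of the wild type. In the same libraries the structural RNAs took 33.7 ± 3.49% and 38.1 ± 4.47% of TPM (exact two-sided permutation p = 0.111), and yolk sac markers ranged from 563 to 1777 TPM and from 488 to 1522 TPM, and the part of either in the members' values was not tested.

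The offset between the members and all genes was also present on other scales. With median-of-ratios scaling the members' median was 0.46 and that of all genes 0.01, and 35 of 38 members were positive beside 55.8% of all genes. With the structural RNAs left out and TPM rescaled, the members' median was 0.38 and that of all genes -0.07, and 34 of 39 members were positive beside 23.6% of all genes. No member was called on either scale. The named host genes had medians near that of all genes on these scales: 0 of 23 were positive as deposited (median -0.16), 12 of 23 after median-of-ratios scaling (median 0.00) and 8 of 23 with the structural RNAs left out (median -0.08), and none was called.

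The members with positive values were spread over the 3 classes, and differences between classes were not tested. Among Snord members 17 of 18 were positive (median 0.32), among Snora members 11 of 14 (median 0.28) and among Scarna members 3 of 6 (median -0.00). The summed level in Myo10_m1J was 131% of the wild type for Snora, 136% for Snord and 111% for Scarna. Over all alternatives it ran from 125 to 151% for Snora and from 126 to 154% for Snord. For Scarna it ran from 102%, without Scarna10, to 127%, after median-of-ratios scaling. By level, 9 of 10 members at 100 TPM or more, 12 of 13 at 10 to under 100 TPM and 10 of 15 tested under 10 TPM were positive.

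**Figure D4:**
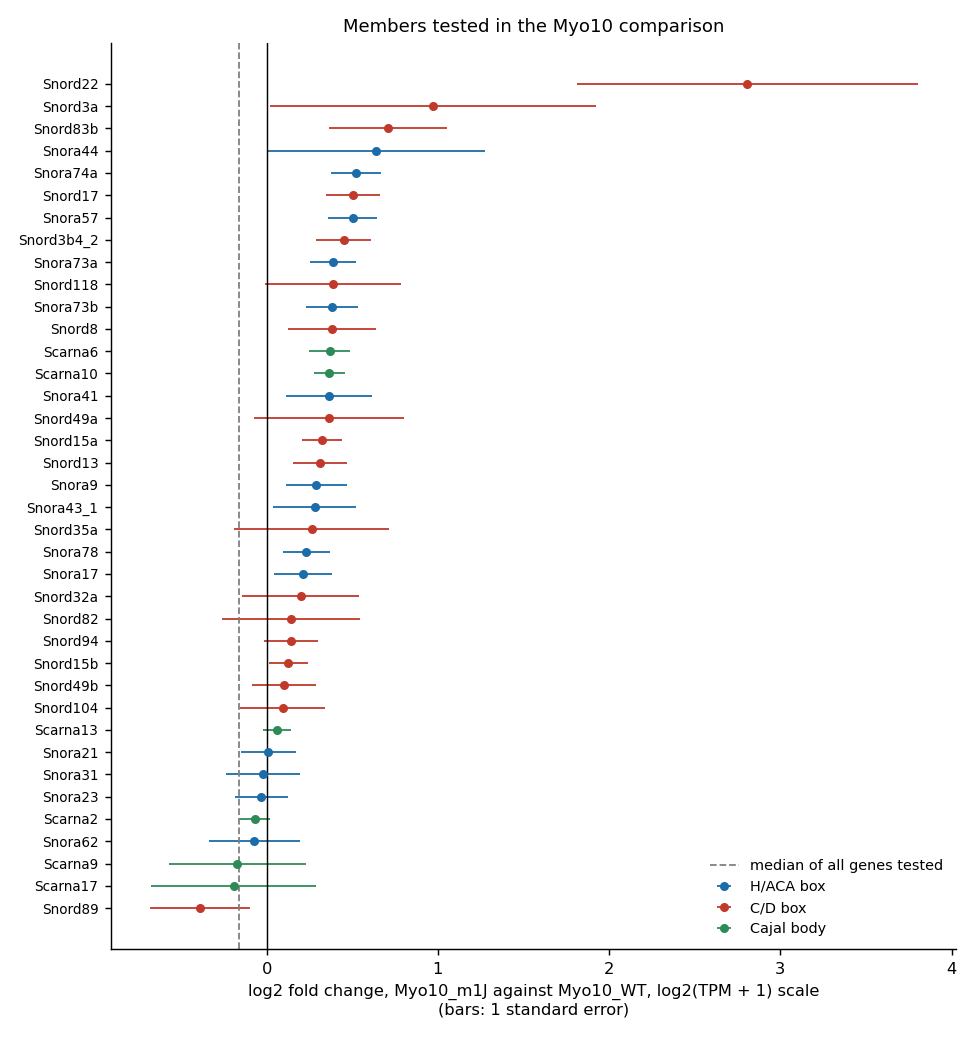
Log2 fold change of Myo10_m1J against Myo10_WT for the 38 members tested, on the log2(TPM + 1) scale with bars of 1 standard error, coloured by class. Most points lie right of both 0 and the dashed median of all genes at -0.16, and no member passed the adjusted threshold.

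Scarna10, a scaRNA whose sequence is shown above, had the smallest p of the members. It had 688, 604, 643 and 713 TPM in Myo10_WT and 871, 820, 872, 985 and 734 TPM in Myo10_m1J. All 5 mutant embryos stood above all 4 wild-type embryos, and the log2 fold change was 0.37 ± 0.092 (SE; limma adjusted p = 0.473). Scarna13 (690 ± 46.0 and 721 ± 61.0 TPM) and Scarna2 (595 ± 56.0 and 567 ± 50.3 TPM), of like level, had values of 0.06 and -0.07 and overlapping groups. Scarna2 was at 0.13 after median-of-ratios scaling and 0.030 with the structural RNAs left out.

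Snora74a had 238, 176, 236 and 231 TPM in Myo10_WT and 266, 370, 376, 347 and 238 TPM in Myo10_m1J. The groups did not overlap, by a narrow margin between the lowest mutant and the highest wild-type embryo, and the log2 fold change was 0.52 ± 0.15 (SE). Snora57 had 62.0, 53.5, 37.7 and 64.4 TPM in Myo10_WT and 66.1, 71.8, 86.6, 79.8 and 76.8 TPM in Myo10_m1J, without overlap, and a log2 fold change of 0.50 ± 0.15 (SE). Both had a limma adjusted p of 0.473. These and Scarna10 were the 3 members whose mutant values all exceeded the wild-type values, which held for 0.0318% of all genes, and 0 members had the reverse, which held for 0.963%. On the median-of-ratios scale the 3 were Snora73a, Scarna10 and Snora57 (0.764% of all genes), and with the structural RNAs left out Snora57 alone (0.127%).

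The other leading members overlapped between the genotypes. Snora73a had means of 1523 ± 248 and 2000 ± 341 TPM (SD), a log2 fold change of 0.39 ± 0.13 (SE), and Snora73b was at 0.38 ± 0.15. Snord17 had 194 ± 39.7 and 273 ± 47.1 TPM (SD), a value of 0.50 ± 0.16 (SE). Snord3b4_2 was at 0.45 ± 0.16, Scarna6 at 0.37 ± 0.12, Snord15a at 0.32 ± 0.12, Snora78 at 0.23 and Snord15b at 0.13. Each of these had a limma adjusted p of 0.473 or more.

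The members Snord3a, Snord22, Snora44 and Snord118 varied widely between embryos of 1 genotype and were singled out after their values were seen. Snord3a, a U3 row, had 3.14, 12.2, 20.4 and 46.0 TPM in Myo10_WT and 28.3, 3.54, 9.77, 126 and 133 TPM in Myo10_m1J. Snord22 was listed at 0 in 2 Myo10_WT embryos, with 29.2 and 27.1 TPM in the others, and had 35.0, 12.8, 35.2, 87.4 and 47.2 TPM in Myo10_m1J. Its log2 fold change of 2.81 ± 1.00 (SE) was the highest of all 12560 genes, and 2 of its 4 wild-type values are the listed zeros. Its host Snhg1 had 91.8, 80.5, 58.0 and 61.2 TPM in the same Myo10_WT embryos, so the embryos at 0 for Snord22 had the higher host level. Snord22 overlaps an annotated exon of Snhg1, so these rows share sequence, and how reads were split between them is uncertain.

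Snora44, in Snhg12, had 1.56, 5.53, 23.5 and 21.8 TPM in Myo10_WT and 14.6, 4.18, 14.4, 23.3 and 27.1 TPM in Myo10_m1J. Snord118, the U8 RNA needed for maturation of the large ribosomal subunit RNAs, had 2.48, 3.84, 8.43 and 11.6 TPM and 8.76, 4.79, 4.58, 7.99 and 17.1 TPM. In all 4 of these RNAs Myo10_WT replicates 1 and 2 stood below replicates 3 and 4. The structural RNAs took 31.9 and 29.7% of TPM in the former and 36.9 and 36.4% in the latter. In Myo10_m1J they took 37.5, 36.9, 39.5, 44.5 and 32.2%. Replicate 5, with the lowest of these shares, had the highest Snord3a, Snora44 and Snord118 values of the mutant embryos. Replicate 4, with the highest share, had the highest Snord22 value. The part of the structural RNAs in these values was not tested.

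**Figure D5:**
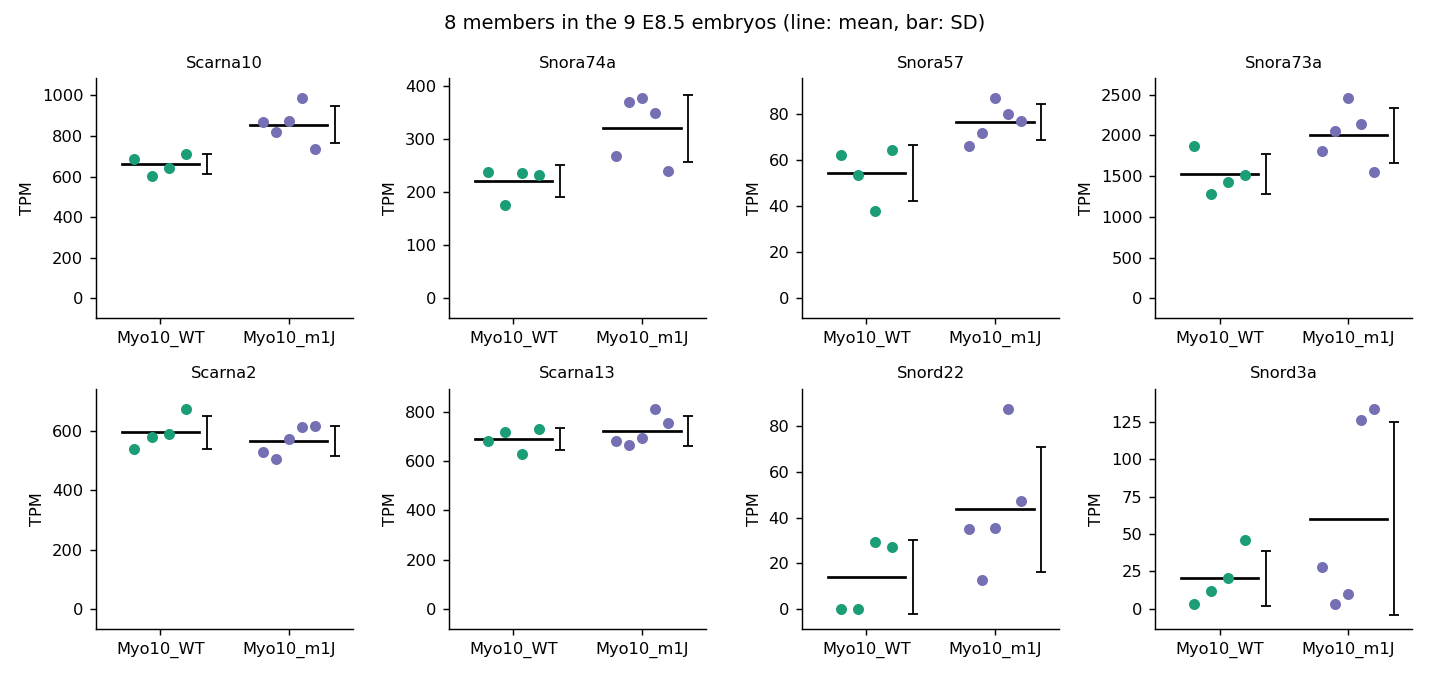
TPM of 8 members in the 4 Myo10_WT and 5 Myo10_m1J embryos, 1 point per embryo, with the mean as a line and the SD as a bar, each panel on its own axis that includes 0. Scarna10, Snora74a and Snora57 show no overlap between the genotypes, Scarna2 and Scarna13 overlap, and Snord22 and Snord3a spread widely within a genotype.

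In the Disp1 comparison 4 members passed the filter and none was called. limma called 0 of them and 0.0301% of 13294 genes, with an adjusted p of 1.00 for each member, and 0 of the 4 had an unadjusted p under 0.05 beside 2.26% of all genes. The log2 fold changes were 0.42 ± 0.42 for Snora43_1, -0.14 ± 0.24 for Snora73a, 0.20 ± 0.45 for Snora73b and -0.02 ± 0.25 for Snord17 (SE). The value of Snora43_1 was 0.083 without Disp1_CS_INDEL replicate 3 and 0.88 without Disp1_CS_INDEL replicate 2. Snora43_1, an H/ACA row, had 0.48, 1.46, 1.38 and 0.57 TPM in Disp1_WT and 1.96, 0, 4.22 and 1.84 TPM in Disp1_CS_INDEL. At such levels the log2(TPM + 1) scale understates folds. These standard errors are no limit of detection, since a difference larger than they are could also go uncalled.

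No member passed the test of the difference between the mutant effects. In a fit of all 17 libraries limma called 0 of 39 members and 0.0216% of 13910 genes, and 4 members had an unadjusted p under 0.05, beside 4.95% of all genes. The smallest p values were for Scarna6 (-0.62 ± 0.20, Disp1 effect minus Myo10 effect), Snord15a (-0.72 ± 0.25) and Snora74a (-0.52 ± 0.18; SE), with an adjusted p of 0.586 by limma. At E9.5 Scarna6 was above 0 in 4 embryos, at most 0.60 TPM, and Snord15a in 2, at most 1.08 TPM. Neither passed the filter of the Disp1 comparison, so their Disp1 effects rest on values near 0. Over all alternatives the differences ran from -1.54 to -0.51 for Scarna6, -1.82 to -0.50 for Snord15a and -0.71 to -0.42 for Snora74a. Since Snora74a was listed at 0 in all 8 E9.5 embryos, its difference is its Myo10 effect with the sign turned.

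The pathway genes showed no call between genotypes in either experiment. In the Myo10 comparison limma called 0 of 6 H/ACA particle genes (median log2 fold change -0.10), 0 of 12 C/D particle genes (-0.14), 0 of 18 Cajal body genes (-0.17), 0 of 23 genes of snoRNA release and end processing (-0.15), 0 of 30 genes of RNA polymerase I and ribosomal RNA processing (-0.11) and 0 of 15 noncoding host transcripts (-0.28). The median gene stood at -0.16, and after median-of-ratios scaling these 6 medians lay between -0.09 and 0.09. The structural RNAs had a median of 0.14, with 9 of 11 rows positive. The other short noncoding RNAs had a median of -0.02, with 6 of 12 positive, beside 6.0% of all genes. After median-of-ratios scaling 9 of 12 of the latter were positive (median 0.18), beside 55.8% of all genes (median 0.01). On that scale the structural rows Rn7s1, Rn7s2 and Rpph1 had a median of 0.40, and each was positive.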

How the data were processed

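RNA of 17 single embryos was sequenced, and the authors deposited 1 table of TPM for 41709 gene symbols, with each library summing to 1000000. The submitters' processing notes name the build GRCm39. Which aligner, quantifier, annotation and strand setting were used is not given in the sources used here. Because TPM carries no read number, depth is unknown and no counting interval or floor is printed. Symbols of copies are numbered in the table, and 7SK and Rmrp were read from such rows.

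Groups came from the sample titles. Values were analysed as log2(TPM + 1). A gene entered a comparison when 4 or more of its libraries had a TPM of 1 or more. The test was limma 3.58.1 (R 4.3.3) using a trend of variance on mean level, p-values adjusted by Benjamini-Hochberg over every gene tested, and a threshold of 0.05. The method was tested on simulated data. Single values were tested by exact two-sided permutation. The p-values judge group differences against the spread between these embryos, which are treated as independent. Labels do not link embryos to litters, so whether litter mates break that independence is unknown.

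Members and lists were chosen with earlier results of these data known. Members were named as the 4 highest of each class, the 5 largest changes each way among those called (or the 3 with the smallest p), and the 3 on each side of the rule's limit. List genes were named from those called, and Snord3a, Snord22, Snora44, Snord118, Snord3b copies and further examples after their values were seen. Sequences, lengths and hosts came from GENCODE M21 (GRCm38), a build other than that of the table, so positions are left out. Snhg4, Snhg7 and 7 of the listed other short noncoding RNAs are not in the table under those symbols.

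Results were recomputed without the filter, with a filter on a mean of 5 TPM, with 0.1 as pseudocount, after median-of-ratios scaling, after removal of the structural RNAs, without the trend, in a joint fit of the 17 libraries, with a replicate block, and leaving each library out. The class sums were recomputed under median-of-ratios scaling, with the structural RNAs left out, without each library and without the highest member of the class. The share of all genes that were positive, the counts without overlap and the lists under each scaling were added after seeing the data. No sample was left out.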

Additional observations from a re-analysis of the deposited data

Results flagged for a closer look

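Of 50 groups of 4 or 5 libraries checked, 3 held a sample far from the others by Dixon's criterion, and chance flags about 1 in 20. Scarna6 had 82.5 TPM in Myo10_m1J replicate 5, while the other 4 mutant embryos lay between 104 and 110 TPM. Snora74a had 176 TPM in Myo10_WT replicate 2, while the other 3 lay between 231 and 238 TPM. The structural RNAs took 0.0113% of TPM in Disp1_WT replicate 4, while the other 3 wild-type E9.5 embryos lay between 0.00524 and 0.00573%.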

How the results depend on the processing

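Of 340 recomputed values of single members in 19 results, 335 kept their direction and side of the threshold. Snora73a in the Disp1 comparison was at 0.070 without Disp1_WT replicate 2 (range with each library left out -0.28 to 0.070), and Snora73b at -0.20 without Disp1_WT replicate 4 (-0.20 to 0.51). Scarna2 in the Myo10 comparison was at 0.13 with median-of-ratios scaling and at 0.030 with the structural RNAs left out. The cause was not tested. Replicate numbers did not pair the samples (correlations of same-numbered embryos from -0.287 to 0.463), and the replicate block, in which Myo10_m1J replicate 5 has no partner, called 1 member in the Myo10 comparison, Scarna10 (0.42, limma adjusted p = 0.0491, over all alternatives 0.0491 to 0.834), and 46 genes rather than 1. No other alternative called a member in the Disp1 or Myo10 comparison or in the difference of effects. The members' median in the Myo10 comparison was 0.23 to 0.35 with each library left out, and 29 to 32 members were positive. Without any 1 Myo10_WT library the age comparison called 10 members, because the filter then needs an E9.5 library to pass, and with each library left out the count was 10 to 28. The Scarna sum in Myo10_m1J was 127% of the wild type with median-of-ratios scaling and 102% without Scarna10. Over all alternatives the Snora sum was 125 to 151% and the Snord sum 126 to 154%. Counts of all genes called were 1 to 8 in the Disp1 comparison (main 4), 2 with no filter and 3 without Myo10_WT replicate 4 in the Myo10 comparison, and 8 with no filter and 13 with the replicate block for the difference (main 3). Calls between the ages were 9304 higher and 1364 lower as deposited, and 4958 and 4736 with median-of-ratios scaling. Depth cannot be read from TPM, so how it limits members near 1 TPM is unknown.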
